A study of Solanum lycopersicum with 36 samples.

Results

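Shoots of the tomato mutant sdg34 were compared with shoots of the mutant sdg33 after both had been supplied with nitrogen, gene by gene, to show where the loss of either of these related genes leaves a different transcriptome. The comparison used 6 of the 36 RNA-seq libraries of the study, 3 of sdg34 shoots and 3 of sdg33 shoots. Both mutants carry CRISPR/Cas9 edits in the cultivar Castlemart II, and the transcriptome was taken from 1 line of each (sdg34.1 and sdg33.1), so that a property of the line and an effect of the mutated gene cannot be told apart. Unedited Castlemart II (WT) shoots under the same supply, 3 libraries, served only as a level for reference. All seedlings grew for 2 weeks in nutrient medium, were starved of nitrogen for 2 days, and were then held for 5 h in medium with nitrogen (+N: 1.2 mM KNO3, 0.8 mM Ca(NO3)2 and 0.2 mM NH4H2PO4). Matching shoots that stayed without nitrogen for the last 5 h (-N) and matching +N roots, again 3 libraries per mutant, are given where they show whether a difference recurred in separate libraries; shoots and roots may come from the same plants. Each library was made from a pool of 3 plants.

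SDG33 and SDG34 are SET-domain proteins related to Arabidopsis SDG8, which methylates lysine 36 of histone H3 along transcribed genes. In Arabidopsis this mark accompanies transcript elongation, and sdg8 mutants have altered responses to nitrogen, carbon, light and brassinosteroid. Nitrate supply is known to switch on genes of nitrate uptake, nitrogen assimilation and, with them, sulfate assimilation, because both nutrients are needed to make cysteine and other amino acids.

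The values are normalized counts on a common scale: each of the 36 libraries holds the same set of values, which sum to 19667069, so the depth of a single library is unknown and no counting interval can be given. Levels are not corrected for gene length and are compared between samples, never between genes. Correlation of log2 values over the genes tested was 0.981 to 0.984 among the sdg34 libraries, 0.971 to 0.976 among the sdg33 libraries and 0.959 to 0.970 between the mutants. Against WT it was 0.917 to 0.926 for sdg34 and 0.892 to 0.916 for sdg33. The median SD of a gene was 0.16 in sdg34 and 0.22 in sdg33, on the log2 scale. As a check of the organ, 6 genes of light harvesting and the photosystems were read at 348 to 37682 in the mutant shoots and at 0 to 438 in the mutant +N roots; for each gene every shoot library was above every root library.

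At +N, 734 genes were higher and 753 lower in sdg34 than in sdg33 among 19794 tested (3.71% and 3.8% of them; limma, Benjamini-Hochberg adjusted p under 0.05). The differences were mostly small: the median log2 difference of the higher genes was 0.79 and that of the lower genes -0.73, against -0.01 over all genes tested. A change of at least 1 on the log2 scale was reached by 234 higher genes (1.18%) and 196 lower genes (0.99%), and a change of at least 2 by 44 (0.222%) and 35 (0.177%). The 3 sdg34 libraries did not overlap the 3 sdg33 libraries for 733 of the higher and 752 of the lower genes, whereas 28.9% of all tested genes were without overlap. The plot of differences against level shows both directions at all levels. The number of calls was unstable: it was 168 when the variance was not allowed to depend on level, and 293, 467 and 657 without sdg34 replicate 1, 2 or 3. Without sdg33 replicate 2 it was 423, without sdg33 replicate 3 it was 2781, and without sdg33 replicate 1 it was 1813. The 101 called genes that were named or considered kept their direction throughout, but 62 of them missed the threshold without the variance trend.

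**Figure D1:**
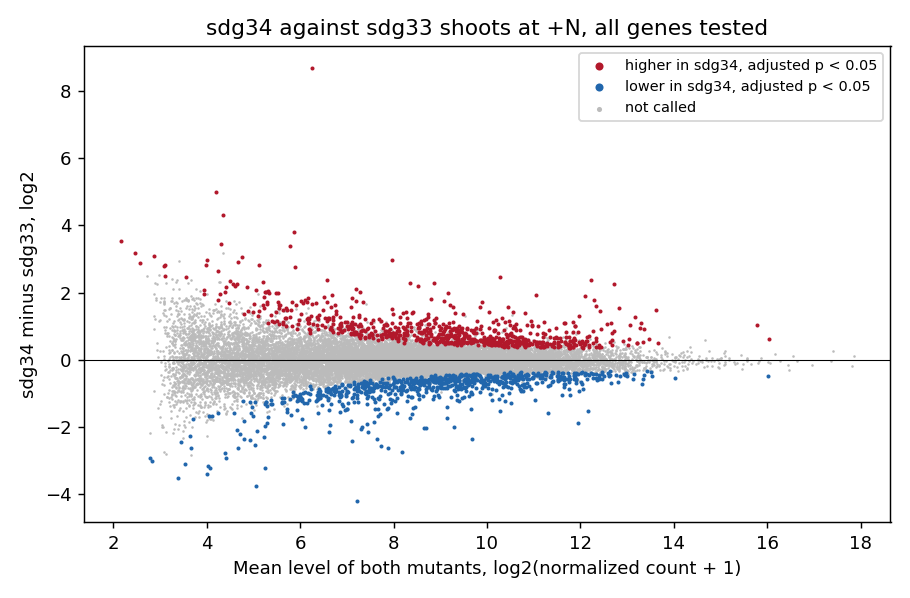
Each point is 1 of the 19794 genes tested; the x axis is the mean of the 2 mutants' levels on the log2(normalized count + 1) scale and the y axis the log2 difference, sdg34 minus sdg33, in +N shoots. Red points are the 734 genes higher in sdg34, blue points the 753 lower in sdg34, and grey points were not called; the highest red point, at 8.69, is the homeobox leucine zipper gene Solyc06g035940.3.

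The transcripts of the mutated genes themselves were measurable in both lines, and gene-level values cannot show a small edit. SDG34 (Solyc06g059960.3) had normalized counts of 84, 95 and 94 in sdg34, 141, 136 and 176 in sdg33, and 98, 110 and 101 in WT. It was lower in sdg34 by a log2 difference of -0.72 (SE 0.19, adjusted p = 0.0457), with the sdg34 libraries just below those of WT and the sdg33 libraries all above them. This call was lost without each library in turn (adjusted p from 0.0553 to 0.17). SDG33 (Solyc04g057880.3) was read at 410, 322 and 342 in sdg34, 252, 243 and 284 in sdg33, and 396, 398 and 380 in WT. Its difference of 0.46 did not pass (SE 0.15, adjusted p = 0.0876), although the libraries did not overlap; without sdg33 replicate 3 it passed (adjusted p = 0.0441).

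The largest difference of all was in a transcription factor gene that was nearly silent in sdg33 and in WT. Solyc06g035940.3, described as a homeobox leucine zipper protein, a plant class of DNA-binding regulators, had normalized counts of 2282, 1439 and 601 in sdg34 shoots, 3, 0 and 6 in sdg33 shoots, and 0, 5 and 0 in WT shoots. The log2 difference was 8.69 (SE 0.64, adjusted p = 8.11e-05). It recurred in -N shoots, with 94, 348 and 157 in sdg34 and 2, 14 and 7 in sdg33 (4.61, adjusted p = 0.0122). In +N roots the values were 3704, 2636 and 532 in sdg34, 4, 3 and 1 in sdg33, and 10, 5 and 3 in WT (8.99, adjusted p = 0.0181). High levels were thus present in every sdg34 library of +N shoots, -N shoots and +N roots, and in none of the sdg33 and WT libraries given here. Solyc12g042800.2, a protein with a double-stranded RNA-binding domain, had a like pattern at +N, with 58, 156 and 83 in sdg34 shoots, 1, 1 and 5 in sdg33 shoots, and 1, 1 and 6 in WT shoots (5.0, SE 0.57, adjusted p = 0.000969). In +N roots it was read at 76, 120 and 46 in sdg34 and at 2, 0 and 2 in sdg33 (5.19, adjusted p = 0.0465). At -N its levels overlapped, at 2, 33 and 2 in sdg34 and 0, 15 and 4 in sdg33, and it was not tested there.

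In the opposite direction, an ethylene-responsive transcription factor gene (Solyc06g009810.3), of a class that acts downstream of the hormone ethylene, was present in sdg33 and close to 0 in sdg34 and WT. Its +N shoot values were 2, 6 and 4 in sdg34, 58, 33 and 60 in sdg33, and 4, 0 and 5 in WT (-3.40, SE 0.50, adjusted p = 0.00411). The -N shoots gave 7, 4 and 6 in sdg34 and 95, 74 and 63 in sdg33 (-3.56, adjusted p = 0.00656). The +N roots gave 1, 0 and 0 in sdg34 and 26, 15 and 44 in sdg33 (-4.42, adjusted p = 0.0498). These were the only genes called in the same direction in all of +N shoots, -N shoots and +N roots: 1 higher in sdg34, Solyc06g035940.3, and 1 lower, Solyc06g009810.3. Both kept their +N call under every alternative that gave a value. Leaving out any library of the mutant with the high level, or asking for a minimum of 10 in all libraries, took the gene out of the test.

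**Figure D2:**
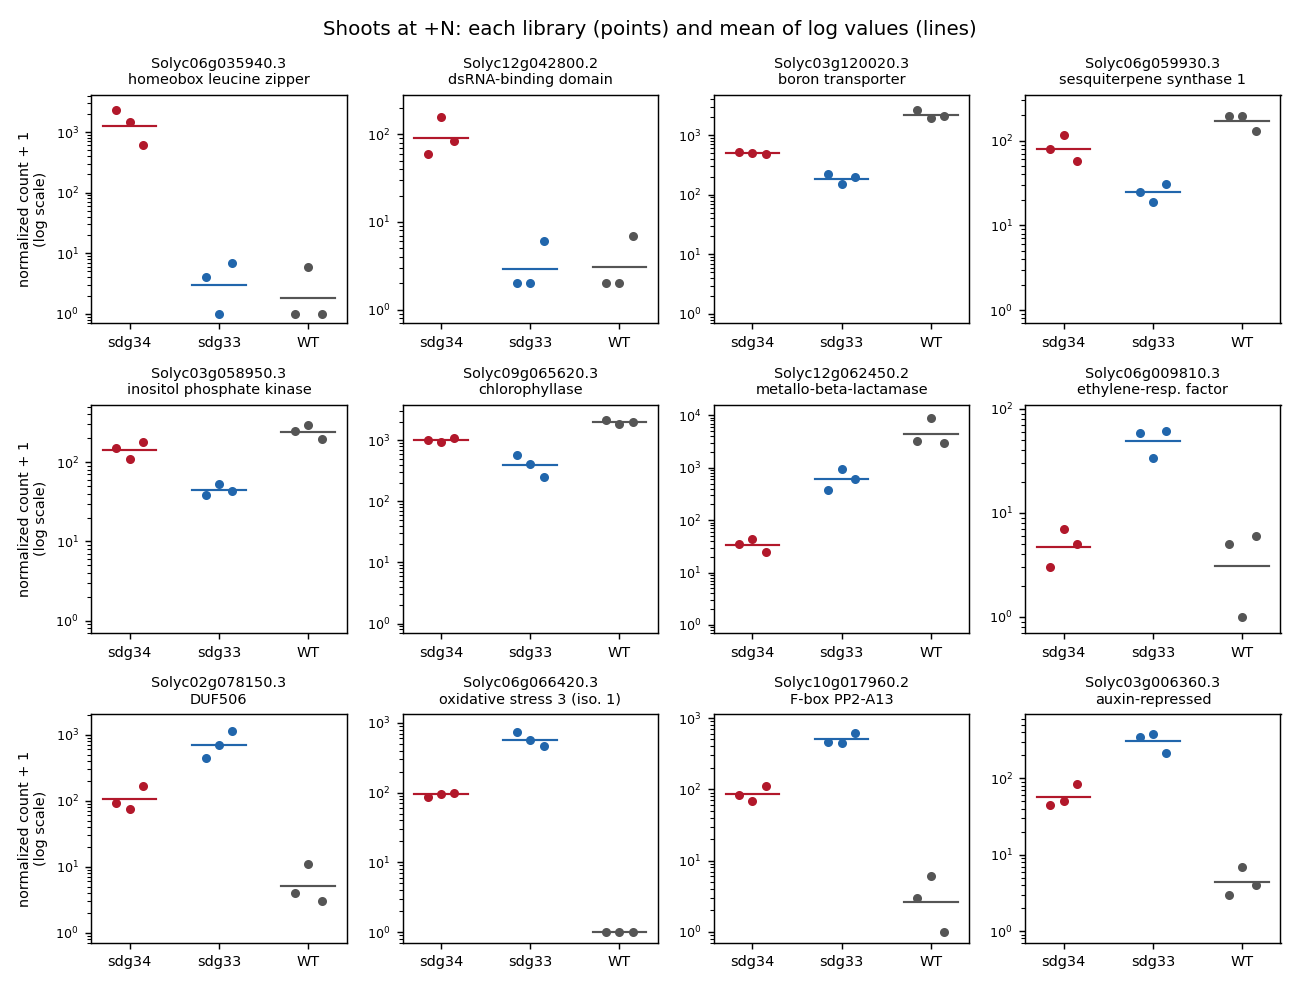
Each panel is 1 gene; points are the 3 libraries of sdg34, sdg33 and WT shoots at +N, lines are means of the log values, and the y axis is the normalized count plus 1 on a log scale. The first 6 panels are genes higher in sdg34 and the last 6 genes lower in sdg34; in the last row the WT libraries lie at 0 to 10, below both mutants.

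Of 6 tested genes described with sulfur or sulfate, 4 were lower in sdg34 than in sdg33 at +N (66.7%) and none was higher; the list and its genes were picked after values had been seen. Of all described genes tested, 21.7% were called, 8.88% higher and 12.9% lower in sdg34, and of those without a description 6.51%. The descriptions come from lists of genes that differed from WT in these same libraries, so the counts by description given here are no independent evidence of a direction. The 4 genes include the 3 described adenylylsulfate reductases, the enzyme that reduces activated sulfate to sulfite and is a main point of control of the pathway. Solyc02g080640.3 had normalized counts of 7418, 7514 and 8836 in sdg34, 11890, 15713 and 12094 in sdg33, and 20008, 14439 and 19084 in WT (-0.73, SE 0.12, adjusted p = 0.00647). Solyc02g032860.3 had 1373, 1248 and 1508 in sdg34, 1963, 2732 and 2141 in sdg33, and 5782, 4174 and 5120 in WT (-0.72, SE 0.13, adjusted p = 0.0115). Solyc03g031620.3 had 800, 918 and 994 in sdg34, 1052, 1717 and 1460 in sdg33, and 4494, 4095 and 4322 in WT (-0.62, SE 0.17, adjusted p = 0.0468). All 3 genes thus stood in one order, sdg34 below sdg33 and sdg33 mostly below WT. The fourth, a putative response to low sulfur protein (Solyc03g096770.1), whose Arabidopsis relatives mark sulfur shortage, had 552, 816 and 836 in sdg34, 1894, 2900 and 1582 in sdg33, and 3112, 2595 and 3154 in WT (-1.51, SE 0.21, adjusted p = 0.00359). Its undescribed neighbour Solyc03g096760.1, also picked later, had 266, 302 and 364 in sdg34, 915, 1694 and 1210 in sdg33, and 722, 730 and 782 in WT (-2.00, SE 0.20, adjusted p = 0.000626). The gene described as ETHYLENE INSENSITIVE 3-like 3 (Solyc01g006650.2), a name that in Arabidopsis belongs to a regulator of the response to sulfur limitation, was also lower, at 74, 52 and 61 in sdg34, 99, 214 and 172 in sdg33, and 340, 334 and 438 in WT (-1.30, SE 0.28, adjusted p = 0.0213).

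At -N the differences of these genes were all positive, but only that of Solyc02g032860.3 passed. Those of Solyc02g080640.3 (0.41, adjusted p = 0.141), Solyc03g031620.3 (0.30, adjusted p = 0.365), Solyc03g096760.1 (0.16, adjusted p = 0.855) and Solyc01g006650.2 (0.09, adjusted p = 0.935) did not. Solyc02g032860.3 was higher in sdg34 at -N, with 458, 433 and 400 in sdg34 and 292, 253 and 226 in sdg33 (0.75, adjusted p = 0.0345), and Solyc03g096770.1 had 157, 143 and 98 in sdg34 and 63, 72 and 65 in sdg33 (0.96, adjusted p = 0.0635). The change of the mutant difference between +N and -N passed for Solyc02g032860.3 (-1.46, adjusted p = 0.00297), Solyc03g096770.1 (-2.46, adjusted p = 0.00269), Solyc03g096760.1 (-2.16, adjusted p = 0.0441) and Solyc02g080640.3 (-1.14, adjusted p = 0.0126). For Solyc03g031620.3 (-0.91, adjusted p = 0.15) and Solyc01g006650.2 (-1.39, adjusted p = 0.39) it did not. In the +N roots the 3 reductases were 0.41 to 0.45 higher in sdg34 and none passed. Leaving out single +N libraries ended the +N calls on Solyc02g032860.3 (adjusted p = 0.0587 and 0.06 without sdg34 replicate 1 or 2), on Solyc03g031620.3 (0.0854 to 0.193 without any sdg34 replicate or sdg33 replicate 2) and on Solyc01g006650.2 (0.0606 to 0.103 without the same libraries); those on Solyc02g080640.3, Solyc03g096770.1 and Solyc03g096760.1 held.

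Glutaredoxins, small thiol oxidoreductases that use glutathione and of which several Arabidopsis members respond to nitrate, were called in 6 of the 11 tested genes with this description (54.5%, against 21.7% of described genes), all 6 lower in sdg34. The list was again collected after values had been seen, and its median log2 difference was -1.29, against 0.08 over all described genes. Of the 6, 3 lie within 4 consecutive gene models on chromosome 4, in the longest run of neighbouring genes that moved together, Solyc04g011840.1 to Solyc04g011870.1. Solyc04g011870.1 had normalized counts of 10, 5 and 6 in sdg34, 52, 38 and 72 in sdg33, and 2, 4 and 2 in WT (-2.78, SE 0.43, adjusted p = 0.00452). Solyc04g011840.1 had 10, 13 and 10 in sdg34, 36, 66 and 50 in sdg33, and 0, 2 and 5 in WT (-2.07, SE 0.37, adjusted p = 0.00964). Solyc04g011850.1 had 2, 5 and 4 in sdg34, 10, 34 and 55 in sdg33, and 3, 0 and 2 in WT (-2.64, SE 0.66, adjusted p = 0.0353). In each the sdg33 libraries were the high ones and the sdg34 libraries lay much nearer to WT.

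The gene models around the run were then read. From Solyc04g011780.1 to Solyc04g011880.1, a stretch drawn around the run after values had been seen, 11 gene models are listed and 10 were tested. In 9 of them every sdg34 library was below every sdg33 library, against 28.9% of all genes tested without overlap in either direction. Of the 10, 6 were called lower, against 3.8% of all genes tested. The 4 genes of the run were chosen because they were called, so these counts are no independent support. The undescribed Solyc04g011800.1 had 18, 1 and 22 in sdg34, 43, 141 and 112 in sdg33, and 0, 0 and 0 in WT (-3.22, SE 0.80, adjusted p = 0.0331). The glutaredoxin Solyc04g011820.1, included as part of the stretch, was the exception, with 22, 10 and 26 in sdg34 and 18, 28 and 32 in sdg33 (-0.47, adjusted p = 0.556). In -N shoots the whole stretch was near silent: no mutant library exceeded 6 for any of these genes but the last, Solyc04g011880.1, which reached 17. The mutant difference could not be shown to depend on nitrogen, since none of the 10 passed that test. In +N roots the libraries of the mutants overlapped for all gene models of the stretch except Solyc04g011870.1, and several were near 0 in both mutants. Solyc04g011800.1 had 14, 15 and 43 in sdg34 and 12, 20 and 49 in sdg33 there. Solyc04g011870.1 had 2, 0 and 2 in sdg34 and 4, 5 and 8 in sdg33. These neighbours are related genes, and reads may have been divided among near copies. Elsewhere, the glutaredoxins, also picked later, Solyc01g067460.2 (77, 111 and 137 in sdg34, 336, 310 and 173 in sdg33) and Solyc01g067440.3 (29, 46 and 60 in sdg34, 106, 114 and 102 in sdg33) were lower by -1.31 and -1.29 (adjusted p = 0.0186 and 0.021), with WT at 14 to 46. Among the called genes named in these lines on glutaredoxins and their neighbours, only Solyc04g011870.1 kept its call without each library in turn; the others lost it without at least 1 library, with adjusted p up to 0.149.

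**Figure D3:**
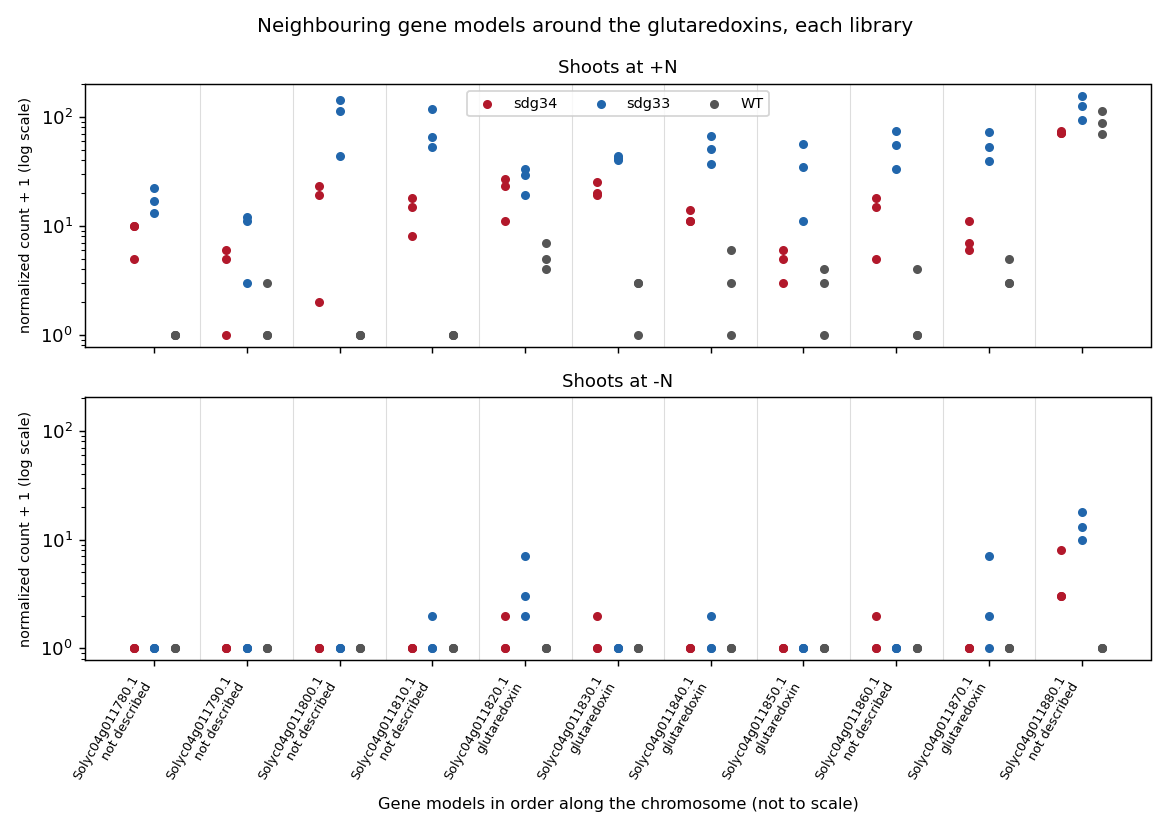
The x axis lists the 11 neighbouring gene models on chromosome 4 in order, not to scale, and the y axis is the normalized count plus 1 on a log scale; each point is 1 library of sdg34 (red), sdg33 (blue) or WT (grey) shoots, at +N above and at -N below. At +N the sdg33 points lie above the sdg34 points for 9 of the 10 genes tested, and at -N nearly all points lie at or close to 0.

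Of 27 tested genes described as heat shock proteins or chaperones, 9 fell in sdg34 and none rose (33.3%, against 21.7% of described genes); 8 of the 9 are DnaJ-type proteins, the partners that hand unfolded proteins to Hsp70, of 13 tested. The DnaJ genes were counted apart, and Solyc06g068500.3 and Solyc02g083835.1 picked, after values had been seen. Solyc09g092260.3, chaperone protein dnaJ 20, had normalized counts of 211, 177 and 190 in sdg34, 612, 516 and 648 in sdg33, and 66, 74 and 52 in WT (-1.61, SE 0.15, adjusted p = 0.000271). Solyc04g081530.1 had 348, 316 and 374 in sdg34, 1086, 805 and 888 in sdg33, and 10, 4 and 22 in WT (-1.41, SE 0.14, adjusted p = 0.000626). Solyc06g068500.3 had 1242, 1222 and 1595 in sdg34, 4132, 2402 and 3014 in sdg33, and 424, 588 and 516 in WT (-1.21, SE 0.18, adjusted p = 0.0042). All 3 were above WT in both mutants, and sdg33 was the farther from it. In -N shoots the mutants were alike within their spread, for example 462, 606 and 367 in sdg34 and 426, 516 and 318 in sdg33 for Solyc09g092260.3. The change of the mutant difference between +N and -N passed for Solyc09g092260.3 (-1.80, adjusted p = 0.00661), Solyc04g081530.1 (-1.50, adjusted p = 0.00599), Solyc06g068500.3 (-1.16, adjusted p = 0.026) and Solyc02g083835.1 (-0.95, adjusted p = 0.0274). The last of these had 3048, 3200 and 3210 in sdg34, 6940, 5398 and 5124 in sdg33, and 72, 184 and 122 in WT at +N (-0.87, SE 0.12, adjusted p = 0.0026). None of the 4 lost its +N call when a library was left out. Whether their change with nitrogen held in alternative fits was not examined.

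A larger set of genes was low in WT, higher in sdg34 and highest in sdg33. The gene described as oxidative stress 3 isoform 1 (Solyc06g066420.3) had normalized counts of 86, 95 and 98 in sdg34, 730, 558 and 466 in sdg33, and 0, 0 and 0 in WT (-2.62, SE 0.18, adjusted p = 7.55e-05). A separate gene on chromosome 3, described as oxidative stress 3, putative isoform 2 (Solyc03g031890.3), had 94, 47 and 132 in sdg34, 398, 440 and 448 in sdg33, and 24, 13 and 11 in WT (-2.34, SE 0.30, adjusted p = 0.00181). A glutaminase domain protein (Solyc03g006490.3) had 2029, 1694 and 2503 in sdg34, 7838, 7579 and 7370 in sdg33, and 36, 15 and 34 in WT (-1.89, SE 0.13, adjusted p = 7.55e-05). In none of them did a library of one mutant reach those of the other. Trehalose-6-phosphate synthase 1 (Solyc07g006500.3), which makes the sugar signal trehalose 6-phosphate, had 180, 220 and 216 in sdg34, 844, 710 and 954 in sdg33, and 107, 79 and 88 in WT (-2.02, SE 0.15, adjusted p = 8.6e-05). An inhibitor of invertase or pectin methylesterase (Solyc03g083730.1) had 328, 295 and 464 in sdg34, 2400, 1478 and 1738 in sdg33, and 83, 56 and 36 in WT (-2.36, SE 0.20, adjusted p = 0.000122). The RING/U-box gene Solyc10g008400.1, of a class of ubiquitin ligases, had 72, 93 and 84 in sdg34, 358, 340 and 404 in sdg33, and 12, 5 and 15 in WT (-2.14, SE 0.17, adjusted p = 0.000108).

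None of these 6 genes passed at -N, and there the libraries of the mutants overlapped for 4 of them. For Solyc06g066420.3 the -N values were 226, 248 and 281 in sdg34 and 304, 270 and 212 in sdg33, so that with nitrogen the level was lower in every sdg34 library and higher in every sdg33 library. The mutant difference changed with nitrogen for Solyc06g066420.3 (-2.57, adjusted p = 0.0002175), Solyc03g006490.3 (-2.26, adjusted p = 3.67e-05), Solyc10g008400.1 (-2.81, adjusted p = 0.00661) and Solyc07g006500.3 (-1.53, adjusted p = 0.00516). It did so too for Solyc03g031890.3 (-2.34, adjusted p = 0.0151) and Solyc03g083730.1 (-1.83, adjusted p = 0.048). Solyc03g031890.3, Solyc03g006490.3, Solyc07g006500.3 and Solyc10g008400.1 were picked after their values were seen. All 6 kept the +N call without each library in turn. Whether their change with nitrogen held in alternative fits was not examined.

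Further genes of this order were F-box protein PP2-A13 (Solyc10g017960.2), with normalized counts of 82, 68 and 110 in sdg34, 457, 448 and 622 in sdg33, and 2, 5 and 0 in WT (-2.55, SE 0.21, adjusted p = 0.0001105). The DUF506 protein Solyc02g078150.3 had 92, 74 and 165 in sdg34, 438, 706 and 1122 in sdg33, and 3, 10 and 2 in WT (-2.74, SE 0.34, adjusted p = 0.00137). Both were called without each library in turn. Among the 25 tested genes with an auxin description, 3 fell and none rose (12%, below the share of described genes), and all 3 are auxin-repressed or dormancy-associated proteins, a family named for transcripts that auxin lowers. Solyc03g006360.3 had 44, 50 and 83 in sdg34, 348, 380 and 214 in sdg33, and 2, 6 and 3 in WT (-2.40, SE 0.28, adjusted p = 0.00111), and it was lower at -N as well, with 166, 177 and 240 in sdg34 and 628, 590 and 496 in sdg33 (-1.56, adjusted p = 0.00656). Solyc06g063060.3 (-0.79, adjusted p = 0.0258) and, picked later, Solyc02g077880.3 (-0.58, adjusted p = 0.0195) were smaller differences, whose calls were lost without sdg34 replicate 1 (adjusted p = 0.113 and 0.104) and without some others. Of 14 tested genes described as SAUR, short auxin-induced transcripts, none passed and the median was -0.40. The 3 SAUR-like genes that the study names in roots carry no description in the lists used, and 1 of them passed. Solyc07g066560.1 had 144, 116 and 113 in sdg34, 230, 230 and 175 in sdg33, and 74, 166 and 102 in WT (-0.76, SE 0.19, adjusted p = 0.0334). Its call was lost without sdg34 replicate 1 and 4 other libraries (adjusted p from 0.0675 to 0.138). Solyc01g091030.3 (-0.50, adjusted p = 0.23) and Solyc01g096340.3 (0.11, adjusted p = 0.83) did not pass.

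Of 59 tested transport proteins 2 were higher and 10 lower in sdg34 (20.3%, close to the 21.7% of all described genes, which themselves were more often lower); the description search also takes in a biotin carboxyl carrier protein. The nitrate transporter NRT1.1 (Solyc08g078950.3), which in Arabidopsis both carries and senses nitrate, carries no description in the lists and stands outside that count. It was higher in sdg34, with 6940, 5968 and 6620 in sdg34, 4876, 3796 and 3746 in sdg33, and 5426, 4358 and 3874 in WT (0.66, SE 0.12, adjusted p = 0.00915; 0.0599 without sdg34 replicate 1). At -N its difference was 0.06 (adjusted p = 0.783), and the change between +N and -N did not pass (adjusted p = 0.143). Among the described transporters, a putative boron transporter (Solyc03g120020.3) had 514, 510 and 479 in sdg34, 219, 152 and 194 in sdg33, and 2637, 1936 and 2096 in WT (1.42, SE 0.16, adjusted p = 0.000969), and it was higher at -N too (1.59, adjusted p = 0.0207). The potassium channel Solyc01g104030.3 had 1078, 966 and 816 in sdg34, 444, 376 and 624 in sdg33, and 1730, 2018 and 1604 in WT (1.01, SE 0.18, adjusted p = 0.00956; 0.0613 without sdg34 replicate 1). Both genes were highest in WT. A putative cationic amino acid transporter (Solyc11g006710.2), the only one called of 6 tested genes described with nitrogen uptake or assimilation, had 107, 152 and 164 in sdg34, 310, 554 and 316 in sdg33, and 40, 35 and 34 in WT (-1.44, SE 0.24, adjusted p = 0.00671). Potassium transporter 2 (Solyc12g039170.1) had 134, 180 and 196 in sdg34, 322, 483 and 404 in sdg33, and 121, 87 and 172 in WT (-1.24, SE 0.20, adjusted p = 0.00508).

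Transcription factors moved both ways, 10 higher and 14 lower of 114 tested (21.1%, close to that of described genes); the description search also takes in RING and other zinc finger proteins. Of 4 tested TCP factors, a class that regulates leaf growth and branching, 3 were called, all lower in sdg34 (75.0%, against 21.7% of described genes); the list and its genes were picked after values had been seen. TCP transcription factor 12 (Solyc11g020670.1) had 648, 757 and 729 in sdg34, 1296, 1394 and 1120 in sdg33, and 154, 154 and 103 in WT (-0.83, SE 0.12, adjusted p = 0.0042). TCP transcription factor 16 (Solyc03g116320.3) and 19 (Solyc09g008030.1) were lower by -0.72 and -0.88, calls that ended without sdg34 replicate 1 (adjusted p = 0.0702 and 0.143) and some others. The homeobox-leucine zipper gene HOX24 (Solyc08g082000.3) had 145, 343 and 118 in sdg34, 423, 946 and 998 in sdg33, and 141, 166 and 174 in WT (-2.02, SE 0.38, adjusted p = 0.0121; 0.0674 and 0.0644 without sdg34 replicate 1 or sdg33 replicate 2). In these the sdg33 libraries were the high ones. Among the higher genes, R2R3MYB transcription factor 75 (Solyc10g086250.2), picked after its values were seen, had 93, 90 and 63 in sdg34, 27, 23 and 36 in sdg33, and 1602, 1526 and 1421 in WT (1.49, SE 0.29, adjusted p = 0.0135; up to 0.0898 without a library), and so lay far under WT in both mutants. The B-box zinc finger gene Solyc07g053140.3, of a family in light signalling, had 574, 648 and 584 in sdg34, 346, 336 and 272 in sdg33, and 1366, 1228 and 1159 in WT (0.92, SE 0.14, adjusted p = 0.00446).

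Of 118 tested oxidoreductases 17 were higher and 6 lower in sdg34 (19.5%, against 21.7% of described genes). The 17 include 6 cytochrome P450 genes of 30 tested (20.0%) and 3 peroxidases of 10 (30.0%), with none lower. Both groups were counted apart after values had been seen. The 6 lower genes include the 3 adenylylsulfate reductases above. Lipoxygenase Solyc08g029000.3, of a class that oxygenates fatty acids, had 180, 142 and 125 in sdg34, 48, 55 and 54 in sdg33, and 9, 5 and 2 in WT (1.48, SE 0.22, adjusted p = 0.0042). Its adjusted p was 0.36 when the WT libraries were in the fit. The oxidoreductase Solyc08g078460.3 went the other way, with 98, 48 and 64 in sdg34, 142, 307 and 320 in sdg33, and 26, 41 and 41 in WT (-1.83, SE 0.33, adjusted p = 0.00974; 0.0545 without sdg33 replicate 2). Genes of specialised metabolism, found by words such as terpene, glycosyltransferase and methyltransferase, were higher in 11 and lower in 4 of 77 (19.5%). Sesquiterpene synthase 1 (Solyc06g059930.3), which forms volatile terpenes, had 78, 115 and 56 in sdg34, 24, 18 and 30 in sdg33, and 192, 192 and 128 in WT (1.72, SE 0.34, adjusted p = 0.0135; up to 0.0741 without a library). It was higher at -N as well, with 130, 100 and 167 in sdg34 and 28, 32 and 51 in sdg33 (1.83, adjusted p = 0.0207). Chlorophyllase (Solyc09g065620.3), which removes the phytol tail of chlorophyll, was picked after its values were seen and had 1012, 938 and 1074 in sdg34, 565, 408 and 248 in sdg33, and 2121, 1844 and 2020 in WT (1.38, SE 0.23, adjusted p = 0.007). Its -N difference also passed (0.71, adjusted p = 0.0445).

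Genes of the hormones ethylene, jasmonate, gibberellin, cytokinin and abscisic acid were higher in 4 and lower in 3 of 37 (18.9%, below the 21.7% of described genes). Abscisic acid stress ripening 5 (Solyc04g071600.3) had 50, 91 and 23 in sdg34, 15, 4 and 12 in sdg33, and 3, 2 and 0 in WT (2.25, SE 0.57, adjusted p = 0.0366; up to 0.159 without a library). Notabilis (Solyc07g056570.1), the tomato gene for a rate-limiting step of abscisic acid synthesis and picked after its values were seen, had 915, 870 and 685 in sdg34, 588, 342 and 422 in sdg33, and 2277, 1892 and 1813 in WT (0.89, SE 0.19, adjusted p = 0.0195; up to 0.101 without a library). At -N it stood the other way round without passing, 440, 498 and 447 in sdg34 against 544, 632 and 587 in sdg33, and the change with nitrogen passed (1.24, adjusted p = 0.0324). Defence proteins were higher in 4 and lower in 1 of 34 (14.7%, also below the 21.7% of described genes). Beta-1,3-glucanase (Solyc01g059965.1), which cuts glucans of fungal and plant walls, had 106, 98 and 140 in sdg34, 56, 30 and 56 in sdg33, and 4, 8 and 1 in WT (1.30, SE 0.29, adjusted p = 0.0227; up to 0.0929 without a library). A thaumatin family protein (Solyc10g084840.2) had 176, 129 and 190 in sdg34, 382, 402 and 348 in sdg33, and 17, 12 and 31 in WT (-1.20, SE 0.18, adjusted p = 0.00409). Both defence genes were above WT in each mutant, one more so in sdg34 and the other in sdg33.

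Kinases were called in 9 of 84 tested (10.7%, below the share of described genes), 4 higher and 5 lower. The inositol hexakisphosphate kinase gene Solyc03g058950.3, of a family that makes inositol pyrophosphates, signals of phosphate status, had 150, 107 and 180 in sdg34, 38, 52 and 42 in sdg33, and 245, 293 and 192 in WT (1.69, SE 0.25, adjusted p = 0.0044). It was higher in sdg34 at -N too (1.06, adjusted p = 0.0476), as was the receptor-like protein kinase Solyc05g009040.3, with 262, 188 and 91 in sdg34, 52, 36 and 48 in sdg33, and 26, 40 and 33 in WT at +N (1.86, SE 0.34, adjusted p = 0.0107; up to 0.0637 without a library) and a difference of 1.04 at -N (adjusted p = 0.0236). Among the lower ones, a SNF1 kinase complex anchoring protein (Solyc12g099970.2), of the energy-sensing kinase complex, had 1744, 1830 and 2272 in sdg34, 3602, 3292 and 3047 in sdg33, and 340, 282 and 349 in WT (-0.77, SE 0.12, adjusted p = 0.00495). Of 32 cell wall genes 2 were higher and 3 lower (15.6%), and of 18 genes of light signalling and the clock 3 were higher (16.7%). Of 13 genes of cell division and chromatin 2 were higher and 1 lower (23.1%). These shares were near or below the 21.7% of described genes. The lower gene of cell division and chromatin is the catalytic subunit of DNA polymerase epsilon (Solyc04g024430.3), which copies DNA, with 282, 388 and 373 in sdg34, 699, 672 and 584 in sdg33, and 86, 124 and 83 in WT (-0.91, SE 0.15, adjusted p = 0.00665); its difference also changed with nitrogen (-0.96, adjusted p = 0.0462). None of the 4 transposable element genes and neither of the 2 late embryogenesis or dehydrin genes tested was called.

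Of 60 tested genes described with photosynthesis or the plastid, 8 were higher and 3 lower in sdg34 (18.3%, against 21.7% of described genes), and this count takes in gene models for products of the chloroplast genome. PsbP-like Solyc01g087040.2, of the oxygen-evolving side of photosystem II, had 3920, 4208 and 4548 in sdg34, 6698, 7054 and 5647 in sdg33, and 1660, 1404 and 1648 in WT (-0.61, SE 0.11, adjusted p = 0.00891; 0.0598 without sdg34 replicate 1). It was the only one called of the light-harvesting and photosystem genes that the study names. Solyc08g067320.2 (-0.19, adjusted p = 0.495), Solyc01g105050.3 (0.04, adjusted p = 0.843), Solyc11g008480.2 (-0.02, adjusted p = 0.955) and Solyc06g069730.3 (-0.17, adjusted p = 0.255) did not pass, nor did Solyc02g070970.1 below. The chlorophyll a-b binding protein Solyc02g070990.1 of the light-harvesting antenna, the 1 called of 4 tested with this description, had 13986, 12567 and 14784 in sdg34, 18200, 20502 and 21078 in sdg33, and 7632, 6891 and 7267 in WT (-0.53, SE 0.10, adjusted p = 0.0105; up to 0.0579 without a library and 0.265 when the WT libraries were in the fit). Its neighbour in the numbering Solyc02g070970.1 had 32837, 32837 and 35396 in sdg34, 35724, 37682 and 36307 in sdg33, and 20076, 16943 and 18898 in WT, a difference of -0.12 that did not pass (adjusted p = 0.415).

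Of 50 tested gene models described as products of the chloroplast genome, a list drawn up after values had been seen, 9 were higher and 2 lower in sdg34 (22%, close to the 21.7% of described genes). ATP synthase subunit alpha (Solyc01g017050.1) had 13169, 15772 and 13986 in sdg34, 1752, 4368 and 3464 in sdg33, and 7395, 19004 and 7015 in WT (2.26, SE 0.25, adjusted p = 0.000861). NAD(P)H-quinone oxidoreductase subunit 3 (Solyc11g044620.1) had 664, 996 and 644 in sdg34, 116, 251 and 152 in sdg33, and 686, 2154 and 627 in WT (2.19, SE 0.26, adjusted p = 0.00116). The summed level over all 50 was 24678, 28914 and 25756 in sdg34, 10298, 19040 and 15969 in sdg33, and 45209, 79846 and 41884 in WT, but the separation of the mutants rested on Solyc01g017050.1. Without this gene the sums of the other 49 overlapped between the mutants, at 11509, 13142 and 11770 in sdg34 and 8546, 14672 and 12505 in sdg33, with 37814, 60842 and 34869 in WT. Reads of the chloroplast genome and of its fragments in the nuclear assembly cannot be told apart in these values.

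Levels of this kind also varied between libraries of 1 group. WT replicate 2 stood apart from the other WT libraries: 220 of the tested genes were read there at no less than 3 times both of the others, 8 of them in the chloroplast list. The summed level of the 220 genes was 204481, 272295 and 213009 in sdg34, 76761, 166031 and 129351 in sdg33, and 278853, 1437791 and 268695 in WT. So chosen from WT alone, 41 of them were higher and 3 lower in sdg34 than in sdg33 (20.0% called, against 7.51% of all genes tested), and their median difference was 0.59. They include several of the largest differences at +N. CYCLIN B2-4 (Solyc00g018970.1) had 199, 276 and 173 in sdg34, 10, 17 and 17 in sdg33, and 75, 882 and 76 in WT (3.80, SE 0.30, adjusted p = 0.000102). An alpha/beta-hydrolase superfamily gene (Solyc00g012430.1) had 2150, 3579 and 2849 in sdg34, 324, 780 and 518 in sdg33, and 1380, 8842 and 1187 in WT (2.46, SE 0.27, adjusted p = 0.000763). The part of this variation in the differences between the mutants was not tested; without the 220 genes, 684 genes were higher and 730 lower.

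The largest decrease in sdg34, Solyc12g062450.2, described as a DNA repair metallo-beta-lactamase family protein, also varied among the WT libraries. It had 34, 42 and 24 in sdg34, 381, 952 and 622 in sdg33, and 3178, 8909 and 2994 in WT (-4.19, SE 0.31, adjusted p = 8.11e-05). In -N shoots it was read at 361, 885 and 6 in sdg34 and 912, 448 and 630 in sdg33, and did not pass (-2.28, adjusted p = 0.396). Its +N call held without each library. Neighbouring genes were searched for runs of at least 3 called genes with a log2 change of at least 1 in the same direction, and 2 were found. Besides the glutaredoxin run, Solyc06g024240.1, Solyc06g024245.1 and Solyc06g024330.2, all undescribed, were higher in sdg34 by 2.76, 1.04 and 1.1; of these the first had 138, 156 and 152 in sdg34, 15, 36 and 17 in sdg33, and 52, 319 and 54 in WT, again with WT replicate 2 the highest. By chromosome, 2.97% to 4.52% of the genes tested were higher and 2.99% to 4.34% lower. Gene models not placed on a chromosome departed from this, with 15 of 183 higher (8.20%) and 3 lower (1.64%). Of 104 microRNA loci listed 9 were tested, and sly-MIR1919a was lower in sdg34, at 4, 5 and 2 in sdg34, 20, 37 and 17 in sdg33, and 4, 4 and 7 in WT (-2.44, SE 0.57, adjusted p = 0.0269; lost without any 1 sdg34 replicate, adjusted p from 0.0576 to 0.0858). The libraries measured long RNA, so this is a level at the locus and not of the mature microRNA.

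Most genes called at +N leaned the same way in the separate -N libraries of the same lines. Of the 722 higher genes that were also tested at -N, 86.4% had a positive difference there, and of the 742 lower genes 86.1% had a negative one. Over all 19365 genes tested in both, called or not, 68.0% had the same sign at +N and -N, and 47.2% had a positive -N difference. The -N differences were smaller, with medians of 0.28 and -0.25, and few passed on their own: 157 of 19775 genes were called at -N (0.794%), 136 of them higher (0.688%) and 21 lower (0.106%) in sdg34, and they held 61 of the higher genes and 7 of the lower genes in the same direction and 2 lower genes in the opposite one. At an unadjusted p under 0.05 the counts were 4923 at +N (24.9%) and 3498 at -N (17.7%). For 63 of 20468 genes (0.308%) the mutant difference itself changed with nitrogen, 53 of them with a more negative sdg34 difference at +N (0.259%) and 10 with a more positive one (0.0489%). For 51 of the 63 the -N difference was under 0.5 in size, and for 45 it had the opposite sign to the +N difference. The count of 63 was fragile: it was 4 without a variance trend, 9 when the WT shoots were in the fit, and between 30 and 107 when a library was left out. It was 30 without sdg34 +N replicate 1, 34 without sdg34 +N replicate 2, 32 without sdg34 -N replicate 1, 41 without sdg33 -N replicate 1, 32 without sdg33 -N replicate 3 and 107 without sdg33 +N replicate 3. Most of the 63 calls were therefore not kept without a variance trend or with the WT shoots in the fit. Which genes kept the call was not examined.

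**Figure D4:**
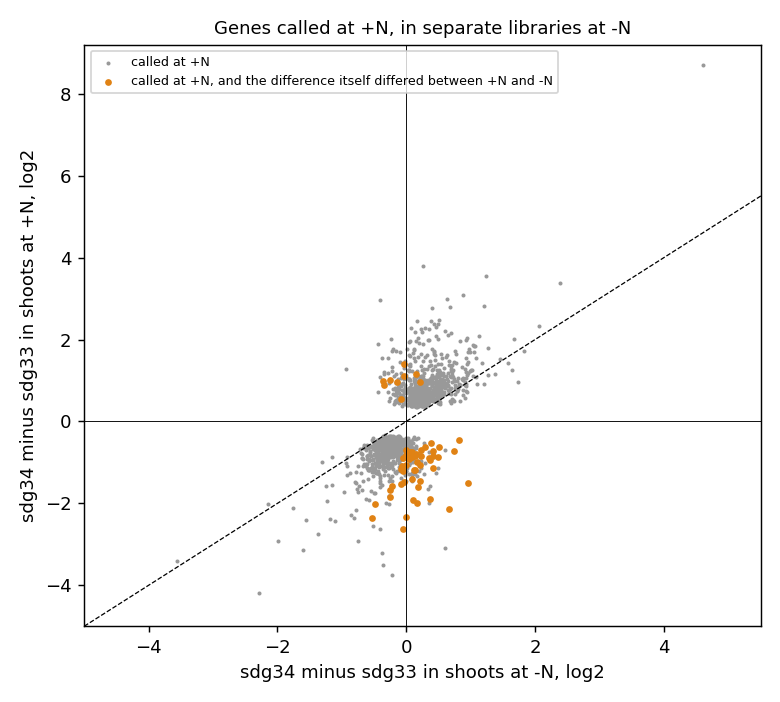
Each point is a gene called at +N that was also tested at -N; the x axis is the log2 difference, sdg34 minus sdg33, in -N shoots and the y axis the same difference in +N shoots, from separate libraries, with equality as a dashed line. Most points lie in the quadrants of equal sign and closer to 0 on the x axis than on the y axis; orange points are called genes whose difference itself changed with nitrogen, most of them below 0 on the y axis.

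**Figure D5:**
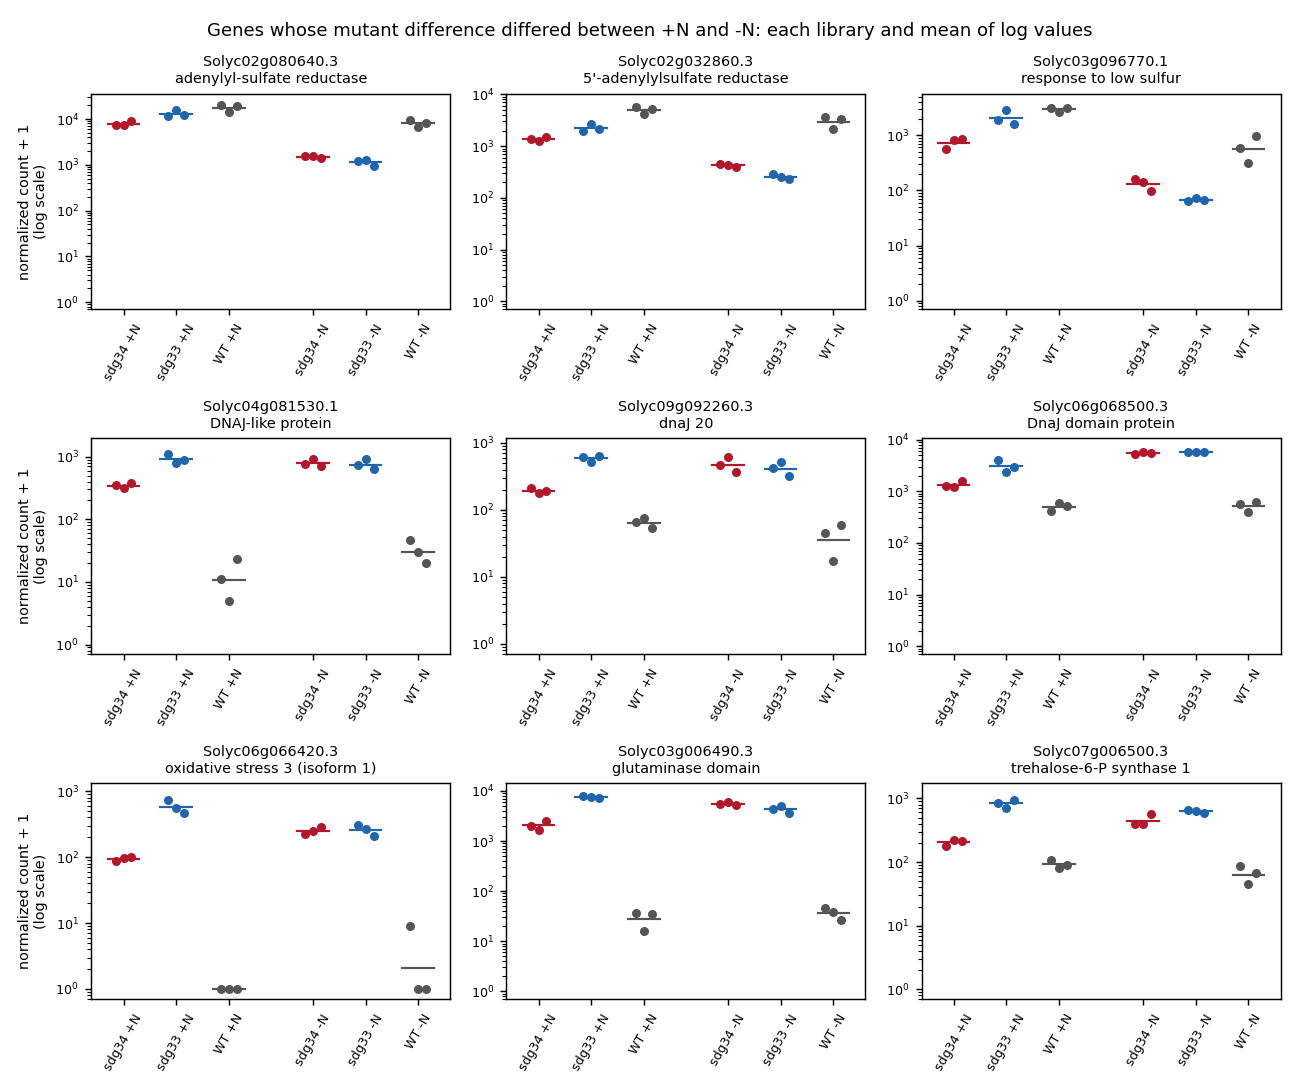
Each panel is 1 gene whose mutant difference changed with nitrogen; points are the 3 libraries of sdg34, sdg33 and WT shoots at +N (left) and -N (right), lines are means of the log values, and the y axis is the normalized count plus 1 on a log scale. The top row holds 3 genes described with sulfur or sulfate, the middle row 3 DnaJ genes and the bottom row 3 genes that were low in WT. In all 9 the sdg34 points lie below the sdg33 points at +N. At -N the mutants lie close together or stand the other way round, except for Solyc07g006500.3. In that panel the sdg34 points stay below the sdg33 points at -N, by a smaller difference (-0.48, not called).

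In +N roots 15 of 19766 genes were called between the mutants (0.0759%), 8 higher (0.0405%) and 7 lower (0.0354%) in sdg34. Of the genes higher in shoots, 625 were tested in roots and 58.9% were positive there, and of the lower genes 704 were tested and 76.3% were negative; over all 17953 genes tested in both, 56.7% had the same sign in shoots and roots and 48.9% were positive in roots. For the higher genes, 58.9% was thus close to the 56.7% of all genes with the same sign and above the 48.9% positive in roots. Called in roots in the same direction were 3 of the higher genes and 1 of the lower ones.

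Set beside WT, most of the genes lower in sdg34 were above WT in sdg33, a side that calling them lower in sdg34 than in sdg33 itself favours. The WT mean was below both mutants for 423 of the 753 genes, between them for 248 and above both for 82. For the 734 higher genes WT was above both mutants in 338, between them in 261 and below both in 135. Over all 19794 genes tested, called or not, WT was below both in 8929, between them in 3318 and above both in 7547. The WT mean was nearer to sdg34 than to sdg33 for 75.4% of the lower genes and 66.6% of the higher genes, against 59.4% of all genes tested. Without WT replicate 2 these shares were 73.0%, 61.4% and 57.9%. These counts are a description of levels, with no test against WT.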

How the data were processed

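RNA was sequenced on an Illumina NovaSeq instrument as paired reads of 50 bp. The authors aligned reads to the tomato genome, build 3.0 (BBMap), assigned them to ITAG3.2 gene models and microRNA loci (featureCounts) and used DESeq2; the versions of these tools are not given in the sources used here. The deposited values are whole numbers, but after sorting they are identical in all 36 libraries, so they were treated as a quantile-normalized score and not as raw counts, and no count test was run. Only 2 tables, shoots and roots, were used, and every column was assigned from its label.

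Values were taken as log2(value + 1), which understates changes of low genes, for genes that reached 10 in no fewer than 3 of the libraries fitted. limma 3.58.1 in R 4.3.3 fitted the 6 libraries with group means, eBayes with a variance trend and Benjamini-Hochberg adjustment over all genes tested; the interaction with nitrogen used the 12 mutant shoot libraries. An exact permutation test of 3 against 3 libraries cannot go below 0.1 and was not used. The code was tested on simulated data. P-values measure the spread between pools of plants of 1 line.

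The comparison, gene lists and named genes were chosen with earlier results of these data known. Named genes were those the study discusses, the largest called differences with libraries not overlapping and a mean of at least 50, up to 2 per direction in each of 16 description families, runs of neighbours, genes called in all 3 comparisons, and microRNA loci; genes picked later are marked as such in the report. Descriptions exist here for 2009 genes, from the study's lists of genes that differ between genotypes in these libraries; 284 of 1306 described genes tested were called (21.7%) and 1203 of 18488 without one (6.51%). No sequences were used here.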

Additional observations from a re-analysis of the deposited data

Results flagged for a closer look

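A difference between sdg34 and sdg33 shoots that itself differed between +N and -N was found for 63 genes (limma interaction term over 12 libraries, adjusted p under 0.05), and 24 of the genes considered by name, 19 of them picked after their values were seen, are among them. Values here are the log2 difference at +N minus that at -N. Negative values, with sdg34 relatively lower at +N, were found for the sulfur genes Solyc03g096770.1 (-2.46), Solyc02g032860.3 (-1.46) and Solyc02g080640.3 (-1.14), for the undescribed Solyc03g096760.1 (-2.16), and for the DnaJ-type genes Solyc09g092260.3 (-1.80), Solyc04g081530.1 (-1.50), Solyc06g068500.3 (-1.16) and Solyc02g083835.1 (-0.95). Likewise negative were the RING/U-box gene Solyc10g008400.1 (-2.81), the genes described as oxidative stress 3, Solyc06g066420.3 (-2.57) and Solyc03g031890.3 (-2.34), the glutaminase domain gene Solyc03g006490.3 (-2.26), the F-box gene Solyc01g091700.3 (-2.02), the inhibitor Solyc03g083730.1 (-1.83), trehalose-6-phosphate synthase Solyc07g006500.3 (-1.53) and DNA polymerase epsilon Solyc04g024430.3 (-0.96). A Ycf2 gene model, Solyc05g046270.3 (-1.44), the NAC domain gene Solyc07g066330.3 (-1.32), beta-amylase Solyc08g077530.3 (-1.28) and the major facilitator transporter Solyc05g051900.3 (-1.06) belong to the same direction. Another gene model described as Ycf2, Solyc03g058220.1, was higher in sdg34 at +N (2.64, adjusted p = 0.00627). Its change with nitrogen did not pass (2.00, adjusted p = 0.599).

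In ethylene responsive factor E.2, Solyc09g089930.2 (-2.15), and the AP2/B3 factor Solyc04g007000.1 (-1.79) the +N difference alone did not pass, while at -N sdg34 was higher. Solyc04g007000.1 had 1012, 1125 and 1416 in sdg34 and 1906, 1256 and 1843 in sdg33 at +N (-0.48, adjusted p = 0.107), against 1922, 1974 and 1955 in sdg34 and 860, 970 and 592 in sdg33 at -N (1.30, adjusted p = 0.0122). Positive values were found for notabilis, Solyc07g056570.1 (1.24), and the senescence-associated DUF gene Solyc08g077480.3 (1.35), which had 528, 596 and 455 in sdg34 and 300, 289 and 209 in sdg33 at +N. Whether each gene kept this interaction call in the alternative fits was not examined. Causes of these differences were not tested.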

How the results depend on the processing

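The count of 1487 genes called at +N (734 higher, 753 lower in sdg34) stayed within 1.5 times under no filter, a minimum of 10 in all libraries, pseudocounts of 0.1 and 10, median of ratios rescaling, a fit of all 18 shoot libraries and, added after seeing the data, without the genes apart in WT replicate 2. It was 168 (74 and 94) without a variance trend, 2467 (1245 and 1222) in the fit of 12 mutant shoot libraries, 430 (234 and 196) with a log2 change of at least 1 and 79 (44 and 35) with at least 2. Without 1 library it ran from 293 to 2781 (127 to 1387 higher, 166 to 1394 lower). The interaction count of 63 (10 positive, 53 negative) was 4 (1 and 3) without a variance trend, 9 (3 and 6) in the 18-library fit, and 30 to 107 (2 to 38 positive, 27 to 85 negative) without 1 library; without a filter the positive genes were 4. Of 101 called genes that were named or considered, none reversed, 30 were called under every alternative that gave a value, and 62 were lost without a variance trend and 29 in the 18-library fit. Reversals touched only genes not called: Solyc01g096340.3 (0.11) ran from -0.21 to 0.31 without 1 library (-0.048 without sdg34 replicate 2), and Solyc11g008480.2 (-0.02) was 0.016, 0.051 and 0.0926 without sdg34 replicate 3, sdg33 replicate 1 and sdg33 replicate 2. Over all genes tested, same-numbered +N libraries of the mutants did not deviate together (r of -0.05, 0.07 and 0.01). This cannot show whether the numbers pair the samples for some genes. The summed level of the genes apart in WT replicate 2 was highest in replicate 2 of both mutants at +N (272295 in sdg34, 166031 in sdg33). At -N it was highest in replicate 2 of sdg34 (204705) and in replicate 1 of sdg33 (171964). With the replicate block 1751 genes were called (917 higher, 834 lower) and 68 for the interaction (13 and 55). The cause of these changes was not tested.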
